A study of Rattus norvegicus with 8 samples.

Results

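Heat shock chaperones are proteins that bind unfolded or newly made polypeptides and keep them from aggregating. The set described here was chosen by gene symbol, from 10 listed genes: Hspa1a, Hspa1b, Hspa4, Hspa8, Hspb1, Hsph1, Hsp90aa1, Hsp90ab1, Dnajb1 and Hspd1. All probe sets whose only symbol in the array's annotation is one of these were taken, and 7 of the 10 genes have such probe sets, 10 in all, out of 14217 genes with a probe set of their own. Hspa1b, Hspa8 and Hsp90aa1 occur only on 4 further probe sets that carry a second symbol as well, and values of those are given below as values of the probe set, not of a gene, and enter no count of members. The label of cytosolic chaperones holds for all listed genes but Hspd1, whose product works in the mitochondrial matrix.

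Each array holds RNA from the frontal cortex of a male Sprague-Dawley rat from Charles River, of about 200 g at the start. Animals were assigned at random to saline or to olanzapine, a drug used against psychosis, given intraperitoneally at 2 mg/kg/day, with 20 animals per group and 21 days of treatment. From each group 4 animals were arrayed, numbered 14, 15, 17 and 19 for saline and 9, 14, 18 and 19 for olanzapine, and each array is a separate animal. No transgene or deletion is given for either group, and the animals' age is not given in the sources used here. The design asks which transcripts of this tissue differ after repeated olanzapine.

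Chaperones work in relays. Hsp70 proteins bind exposed stretches of a client and are driven by ATP, J-domain proteins such as Dnajb1 deliver clients and start ATP hydrolysis, and Hsp110 proteins such as Hsph1 and Hspa4 release the nucleotide again. Hsp90 proteins act later, on kinases and steroid receptors near their final fold, while small heat shock proteins such as Hspb1 hold unfolded clients without ATP. In stressed cells the heat shock factor HSF1 binds heat shock elements, alternating units of GAA and TTC spaced by 2 bases, and induces Hspa1a, Hspa1b, Hspb1, Dnajb1 and Hsph1. Hspa8 and Hsp90ab1 are the constitutive forms, and neurons hold them at high levels without stress.

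The stretches before the gene starts are shown because they are where heat shock elements are looked for. Promoters of 8 of the 10 genes were in the RefSeq table of the GRCr8 assembly, and Hspa1b and Hsp90aa1 were not among them. In the 250 bases before the start, 5 of the 8 held a pair of units, GAANNTTC or TTCNNGAA, forms that read the same on both strands. The pair occurred in 13.5% of all 33469 windows of the same length. Runs of 3 alternating units, which hold overlapping pairs, were found in 3 of the 8 (Hspa8, Hspd1 and Hsph1) and in 0.663% of all windows. Capitals below mark the bases of the pairs, overlapping pairs are merged, and all stretches run 5′ to 3′ on the gene's own strand.
Hspd1: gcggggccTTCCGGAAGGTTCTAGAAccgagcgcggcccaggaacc
Hsph1: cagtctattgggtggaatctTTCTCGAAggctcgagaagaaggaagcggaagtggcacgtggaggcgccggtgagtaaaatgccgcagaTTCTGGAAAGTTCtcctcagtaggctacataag
Hspa8: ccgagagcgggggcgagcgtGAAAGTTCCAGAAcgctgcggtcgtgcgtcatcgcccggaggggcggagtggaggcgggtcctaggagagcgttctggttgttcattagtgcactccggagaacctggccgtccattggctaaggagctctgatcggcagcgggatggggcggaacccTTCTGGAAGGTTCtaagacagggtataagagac
Hspb1: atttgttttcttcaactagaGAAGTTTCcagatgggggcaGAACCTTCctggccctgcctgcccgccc
Dnajb1: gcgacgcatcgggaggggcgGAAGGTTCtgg

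The Hspd1 stretch is chr9:64084242-64084287 on the minus strand and holds 3 overlapping pairs, which begin 242 to 232 bases before the start. The Hsph1 stretch is chr12:10427243-10427364 on the plus strand, with a lone pair 105 bases before the start and a run of 3 units whose last pair begins 31 bases before it. The Hspa8 stretch is chr8:50080281-50080491 on the plus strand and holds 2 runs of 3 units. The Hspb1 stretch is chr12:26432383-26432450 on the minus strand, with separate pairs 129 and 109 bases before the start. The Dnajb1 stretch is chr19:41431142-41431172 on the minus strand, with a single pair 11 bases before the start. The windows of Hsp90ab1, Hspa4 and Hspa1a held none of these letters. A match of letters is a description of the sequence and no measurement of factor binding. Hspd1 and Hspa8 were added to the genes shown after their letters had been seen.

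No chaperone gene passed the test between olanzapine and saline, and the levels of most lay close together in both groups. The member probe set with the clearest difference was the brighter one of Hsp90ab1, the constitutive Hsp90, lower in all 4 olanzapine arrays than in any saline array. In the dimmer probe set of Hsp90ab1, saline spanned all olanzapine values. The brighter probe set of Hsph1, the Hsp110 nucleotide exchanger, was also lower on average, by less once the arrays were brought to one distribution. Of the 14 chaperone probe sets the one with the largest difference was the inducible Hsp70 probe set shared by Hspa1b and Hspa1a, which also missed the adjusted test. It stood near the dim end in 3 saline arrays, and several times higher in 3 olanzapine arrays and in saline 19. No such split was seen in the dim probe set of Hspa1a alone, which the filter removed and whose groups overlapped. All values of that probe set were below 114, the intensity at the filter limit, so it does not settle whether Hspa1a shares the split.

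Differences below are on the scale log2(intensity + 63.4), olanzapine minus saline, where 63.4 is the 25th percentile of all deposited values; this scale understates the change of dim probe sets. They were fitted with limma across all 18625 probe sets left by a filter on dim values, and adjusted p-values are Benjamini-Hochberg values over all of these. Of the 10 member probe sets 8, of 6 genes, were left by that filter. Of these 8, 0 passed an adjusted p of 0.05, as did 0% of all probe sets tested, and the lowest adjusted p on the array was 0.317. At an unadjusted p under 0.05, 2 of the 8 were lower in olanzapine, against 3.73% of all probe sets tested, and 0 were higher, against 4.59%. All 4 olanzapine values lay below all 4 saline values for 1 of the 8, against 2.07% of all tested, and above them for 0 of the 8, against 2.4%. The median difference of the 8 was -0.066, with 6 lower and 2 higher, beside a median of 0.027 over all probe sets tested.

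**Figure D1:**
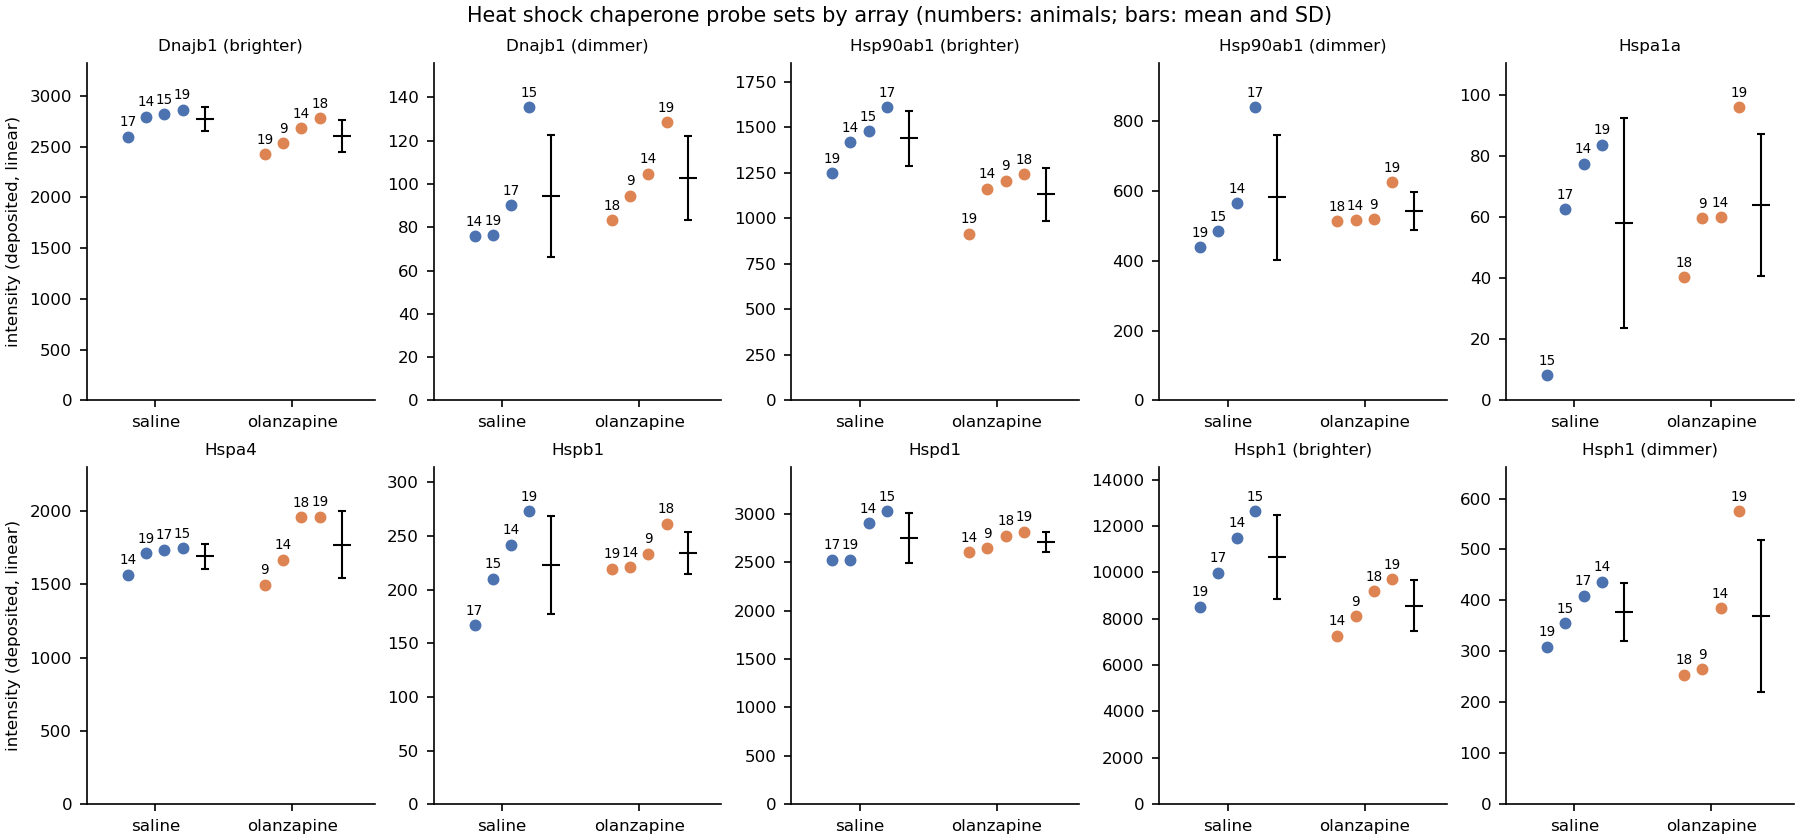
Deposited linear intensity (vertical axis, from 0) of the 10 probe sets of the chaperone genes on the 4 saline (blue) and 4 olanzapine (orange) arrays; each point is an animal with its number, and black bars are the mean and SD. Only the brighter Hsp90ab1 probe set shows groups that do not overlap, with olanzapine at 917 to 1243 and saline at 1249 to 1611.

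The Hsp90 genes come first. Hsp90ab1 encodes the constitutive cytosolic Hsp90, which in neurons stabilises kinases and the glucocorticoid receptor. Its brighter probe set was at 1418, 1480.2, 1611 and 1249 in saline 14, 15, 17 and 19, and at 1207, 1163, 1243 and 917 in olanzapine 9, 14, 18 and 19. All olanzapine values were below all saline values, though saline 19 and olanzapine 18 were only a few units apart, and olanzapine 19 was the lowest. Group means were 1439.8 ± 150.3 and 1133 ± 147 (SD, n = 4 each). The log2 difference was -0.33 (SE 0.12, 95% interval -0.59 to -0.077, limma unadjusted p 0.0142, adjusted p 0.488). It was -0.34 after quantile normalization, where the groups again did not overlap.

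A second Hsp90ab1 probe set was dimmer and did not show this separation. It was at 565, 485, 839.7 and 439 in saline 14, 15, 17 and 19, and at 519, 515, 513 and 625 in olanzapine 9, 14, 18 and 19. Saline 17 was the highest array and saline 19 the lowest, so that saline spanned all olanzapine values. The difference was -0.056 (SE 0.17, 95% interval -0.42 to 0.30), and it turned to 0.12 without saline 17. The log2 ratio of the brighter to the dimmer probe set was 1.25 ± 0.26 in saline and 0.97 ± 0.31 in olanzapine. These ratios differed by -0.28 (exact two-sided permutation p 0.229, adjusted 0.4 over the 3 genes with a pair of probe sets). Such a test of 4 against 4 arrays cannot go below 0.0286. It did not separate the groups by this ratio, which does not show that the probe sets agree. Over all arrays, Pearson's r between the brighter and the dimmer probe set was 0.24.

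Hsp90aa1 encodes the stress-inducible Hsp90, and its probe sets also carry the symbol of the pseudogene Hsp90aa1-ps17. The brighter of these was at 8073 to 9650 in saline and 7687 to 8286 in olanzapine, with 2 olanzapine arrays below all saline arrays. It differed by -0.15 (SE 0.08, limma adjusted p 0.671) as deposited and by 0.033 after quantile normalization, so its direction depended on the scaling. The other overlapped widely, with 2401 to 2975 in saline and 2228 to 2787 in olanzapine, and differed by -0.051 (SE 0.10).

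Among the Hsp70 genes, Hspa1a encodes the inducible Hsp70, the classic marker of a heat shock response. Its own probe set was dim and was removed by the filter. It stood at 77.6, 8.32, 62.6 and 83.8 in saline 14, 15, 17 and 19, and at 59.7, 60.0, 40.5 and 96.1 in olanzapine 9, 14, 18 and 19. The groups overlapped fully, with the lowest array in saline and the highest in olanzapine. In the fit without the filter it differed by 0.11 (SE 0.25, 95% interval -0.45 to 0.66, limma adjusted p 0.956).

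The other probe set for the inducible Hsp70 carries the symbols of both Hspa1b and Hspa1a, near-identical neighbouring copies that short probes may not tell apart. It was singled out after its values were seen. Its intensity was 39.1, 49.7 and 55.9 in saline 14, 15 and 17 and 410.3 in saline 19, against 531, 145, 451 and 483 in olanzapine 9, 14, 18 and 19. Thus 3 olanzapine arrays were above every saline array, olanzapine 14 lay between, and saline 19 stood with the olanzapine arrays and apart from its own group. The saline mean was 139 ± 181 and the olanzapine mean 403 ± 175 (SD, n = 4 each). The difference was 1.43 (SE 0.43, 95% interval 0.52 to 2.35), 2.70-fold on the log2(intensity + 63.4) scale. By limma the unadjusted p was 0.00450 and the adjusted p 0.390. The log2 SD was 1.05 in saline and 0.70 in olanzapine, and the p-value depended on the variance model. Unadjusted, it was 0.0150 by limma without the variance trend and 0.0637 by a plain two-sample test. Without saline 19 the difference was 1.96 (SE 0.31) with a limma adjusted p of 0.0197. This was the only adjusted p under 0.05 for this probe set among 19 alternative settings. Saline 19 was the array that went most against the difference, so a smaller p follows from leaving it out and is no support. The fit without saline 19 passed 106 probe sets in all, 91 of them among the brightest 5%. Low values of this probe set lie below 114, the intensity at the filter limit. Since it passed the filter by its high arrays, its place among the tested is not independent of its difference. In the fit without the filter the SE was 0.48 (95% interval 0.40 to 2.47, limma unadjusted p 0.0109, adjusted p 0.640).

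In other array features too, saline 19 stood with the olanzapine arrays and apart from saline 14, 15 and 17. Saline 14, 15 and 17 had their 98th percentile of intensity at 6174 to 6287, saline 19 at 5618 and the olanzapine arrays at 5474 to 5735. The summed intensity of 7 astrocyte markers on the array, of 8 listed, lay between 43128 and 43794 in saline 14, 15 and 17, at 37413 in saline 19, and between 34677 and 38945 in olanzapine. The astrocyte list was picked out from several marker lists examined. Olanzapine 14, which lay between the groups in the Hsp70 probe set, did not do so here. It had the lowest 98th percentile, 5474, and an astrocyte sum of 35289. The part of these features in the Hsp70 result was not tested. The Hsp70 difference itself was 1.38 after quantile normalization. For the brightest 5% the median of the differences was -0.15 as deposited and 0.00032 after quantile normalization. The astrocyte sums are of deposited values, and the part of this shift in them was not tested. In bulk tissue, fewer cells of a type and less RNA per cell also cannot be told apart.

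**Figure D2:**
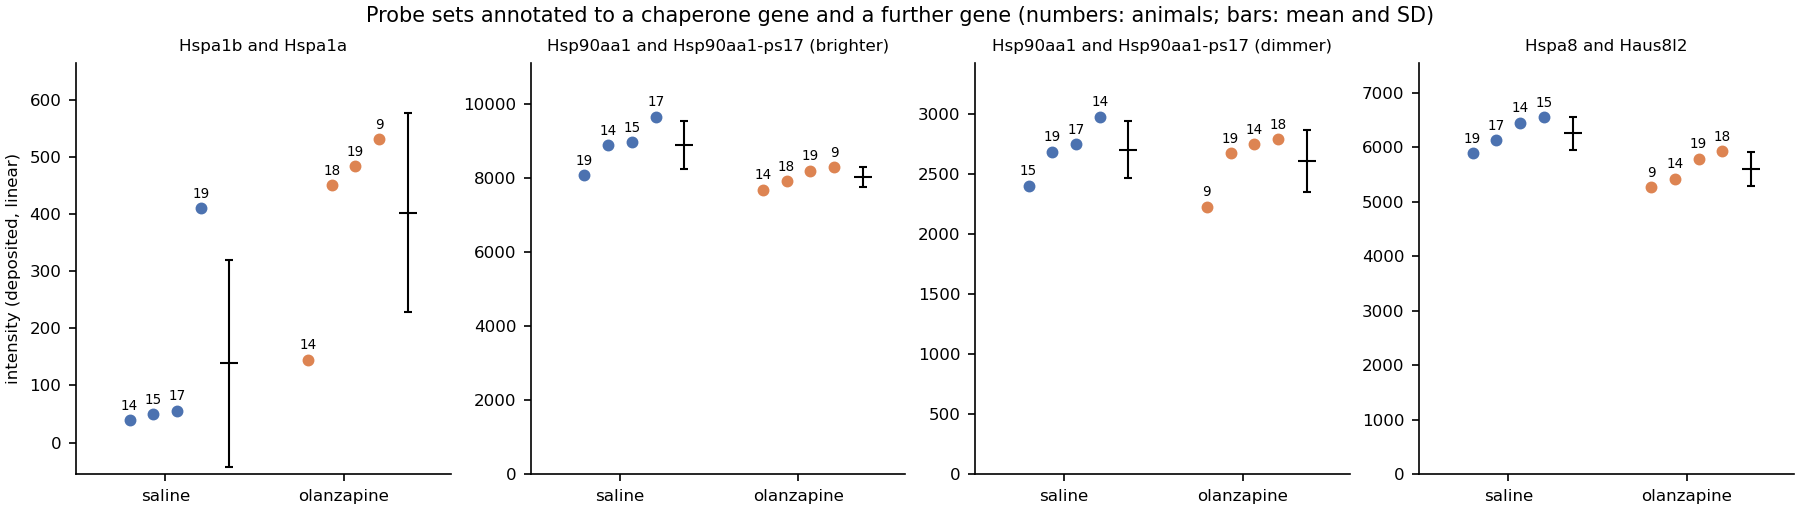
Deposited linear intensity (vertical axis) of the 4 probe sets that carry a chaperone symbol and a further symbol, on 4 saline (blue) and 4 olanzapine (orange) arrays; points are animals with their numbers, black bars are the mean and SD. For Hspa1b and Hspa1a, saline 14, 15 and 17 sit at 39.1 to 55.9, while saline 19 at 410.3 lies among the olanzapine arrays.

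Hspa8 encodes the constitutive Hsc70, which folds new proteins and strips clathrin from endocytic vesicles at synapses. Its probe set also carries the symbol Haus8l2. It was at 6449, 6553, 6127 and 5889.5 in saline 14, 15, 17 and 19 and at 5268, 5419, 5926 and 5787 in olanzapine 9, 14, 18 and 19. Of the olanzapine arrays 3 were below all saline arrays, and olanzapine 18 lay just above saline 19. The difference was -0.16 (SE 0.08, 95% interval -0.33 to 0.010, limma adjusted p 0.637) as deposited and -0.043 after quantile normalization.

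Hsph1 and Hspa4 encode Hsp110 proteins, which exchange nucleotide on Hsp70 and together with it and a J-domain protein can dissolve aggregates. The brighter Hsph1 probe set was at 11492, 12654, 9993 and 8523 in saline 14, 15, 17 and 19, and at 8112, 7264, 9196 and 9718 in olanzapine 9, 14, 18 and 19. The groups overlapped through saline 19, which was below 2 of the olanzapine arrays. Means were 10666 ± 1797 and 8572 ± 1099 (SD, n = 4 each), and the difference was -0.31 (SE 0.12, 95% interval -0.56 to -0.053, limma unadjusted p 0.0209, adjusted p 0.517). The unadjusted p was 0.0717 by limma without the variance trend and 0.0949 by a plain two-sample test. By limma it was above 0.05 with saline 14, saline 15, olanzapine 9 or olanzapine 14 left out. With saline 17, saline 19, olanzapine 18 or olanzapine 19 left out it was below 0.05. After quantile normalization it was -0.11 (SE 0.08, 95% interval -0.29 to 0.066). This probe set, like that of Hspa8 and Haus8l2 and the brighter one of Hsp90aa1, lay among the brightest 5%, whose median difference was -0.15 before and 0.00032 after that normalization. That step gives every array the same distribution, so a value near 0 for the brightest probe sets is largely fixed by it. It would also take out a true change shared by the brightest transcripts. Without saline 19 the difference was -0.41 (SE 0.10) with a limma adjusted p of 0.107.

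The dimmer Hsph1 probe set was at 309 to 437 in saline and spread from 254 in olanzapine 18 and 265 in olanzapine 9 to 576 in olanzapine 19. Olanzapine held both the lowest and the highest arrays, and the log2 SD was 0.19 in saline and 0.47 in olanzapine. The difference was -0.076 (SE 0.21), turned to 0.038 without olanzapine 9 and to 0.054 without olanzapine 18, and was -0.28 without olanzapine 19. The log2 ratio between the Hsph1 probe sets differed between the groups by -0.23 (exact permutation p 0.4, adjusted 0.4).

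Hspa4 was at 1565 to 1745 in saline and at 1496, 1668, 1958 and 1962 in olanzapine 9, 14, 18 and 19. Olanzapine thus held the lowest array and the pair of highest ones, and the difference was 0.058 (SE 0.11, 95% interval -0.17 to 0.29). With 1 array left out it ran from 0.0075 to 0.13.

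Dnajb1 encodes the J-domain partner of cytosolic Hsp70 and is itself induced by heat shock. Its brighter probe set was at 2793, 2822, 2596 and 2865 in saline 14, 15, 17 and 19, and at 2533, 2683, 2783 and 2425 in olanzapine 9, 14, 18 and 19. Olanzapine 9 and 19 were below all saline arrays and the others lay within the saline range. The difference was -0.086 (SE 0.09, 95% interval -0.27 to 0.10, limma adjusted p 0.838). The dimmer probe set was removed by the filter and was at 75.9 to 135.5 in saline and 83.2 to 128.5 in olanzapine, a difference of 0.083 (SE 0.22) in the fit without the filter. The log2 ratio between the Dnajb1 probe sets differed between the groups by -0.17 (exact permutation p 0.4, adjusted 0.4).

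Hspb1 encodes Hsp27, a small heat shock protein found in glia, vessels and stressed neurons, which also binds actin. It was at 242, 210.3, 167 and 273 in saline 14, 15, 17 and 19, and at 234, 221, 262 and 219.6 in olanzapine 9, 14, 18 and 19. All olanzapine arrays lay inside the saline range. The difference was 0.066 (SE 0.17, 95% interval -0.30 to 0.43), which became -0.00042 after cyclic loess and -0.035 without saline 17.

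Hspd1 encodes Hsp60, the chaperonin of the mitochondrial matrix. It was at 2903, 3030.0, 2526 and 2528 in saline 14, 15, 17 and 19, and at 2647, 2604, 2775 and 2816 in olanzapine 9, 14, 18 and 19. All olanzapine values fell inside the saline range, and the difference was -0.015 (SE 0.09, 95% interval -0.21 to 0.18), which turned to 0.0068 after quantile normalization.

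**Figure D3:**
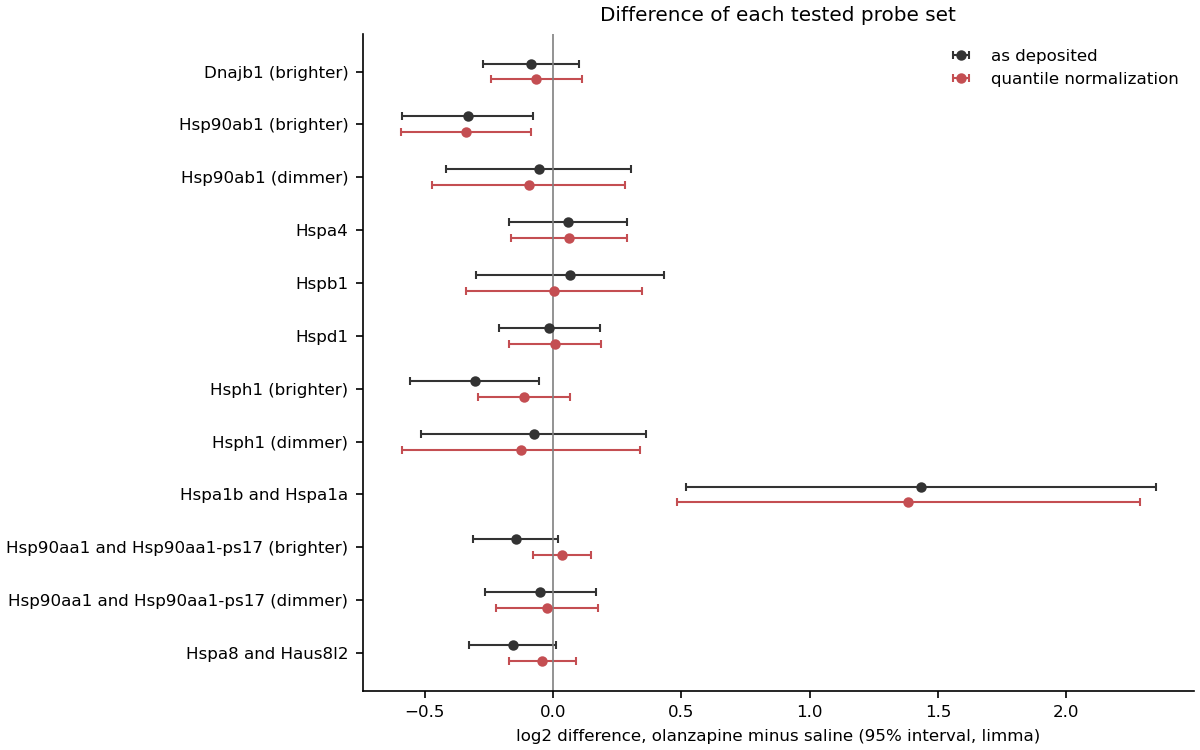
Log2 difference between olanzapine and saline (horizontal axis, on the log2(intensity + 63.4) scale) with its 95% interval from limma for the 8 tested member probe sets and the 4 with a further symbol, as deposited (dark) and after quantile normalization (red). The interval of the brighter Hsp90ab1 probe set stays below 0 under both scalings, and that of the brighter Hsph1 probe set reaches above 0 after quantile normalization.

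Between animals of the same group, the chaperone probe sets did not vary as one block. After each group's mean was taken off, Pearson's r over the 8 arrays had a median of 0.069 over the 28 pairs of tested member probe sets, with 16 pairs above 0 and a range of -0.83 to 0.90. The highest r was between Hspd1 and the brighter Hsph1 probe set, at 0.90, and 0.86 after quantile normalization. The probe set of Hspa8 and Haus8l2 followed both, with r of 0.82 to Hspd1 and 0.88 to Hsph1, and these were 0.49 and 0.53 after quantile normalization. Hspb1 and the brighter Dnajb1 probe set had r of 0.70, and 0.72 after quantile normalization. Hspb1 ran against the dimmer Hsp90ab1 probe set, with r of -0.83, and -0.72 after quantile normalization. The brighter Dnajb1 probe set ran against it too, with r of -0.76, and -0.90 after quantile normalization. Between the dimmer Hsp90ab1 probe set and the brighter one of Hsp90aa1 and its pseudogene r was 0.82, and 0.62 after quantile normalization. The inducible Hsp70 probe set of Hspa1b and Hspa1a had r of 0.57 with Hspb1 and of 0.05 with the brighter Dnajb1 probe set, and these were 0.30 and 0.38 after quantile normalization, so their order depended on the scaling. Probe sets of an array share its RNA, scaling and brightness curve, so these values are given as descriptions.

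**Figure D4:**
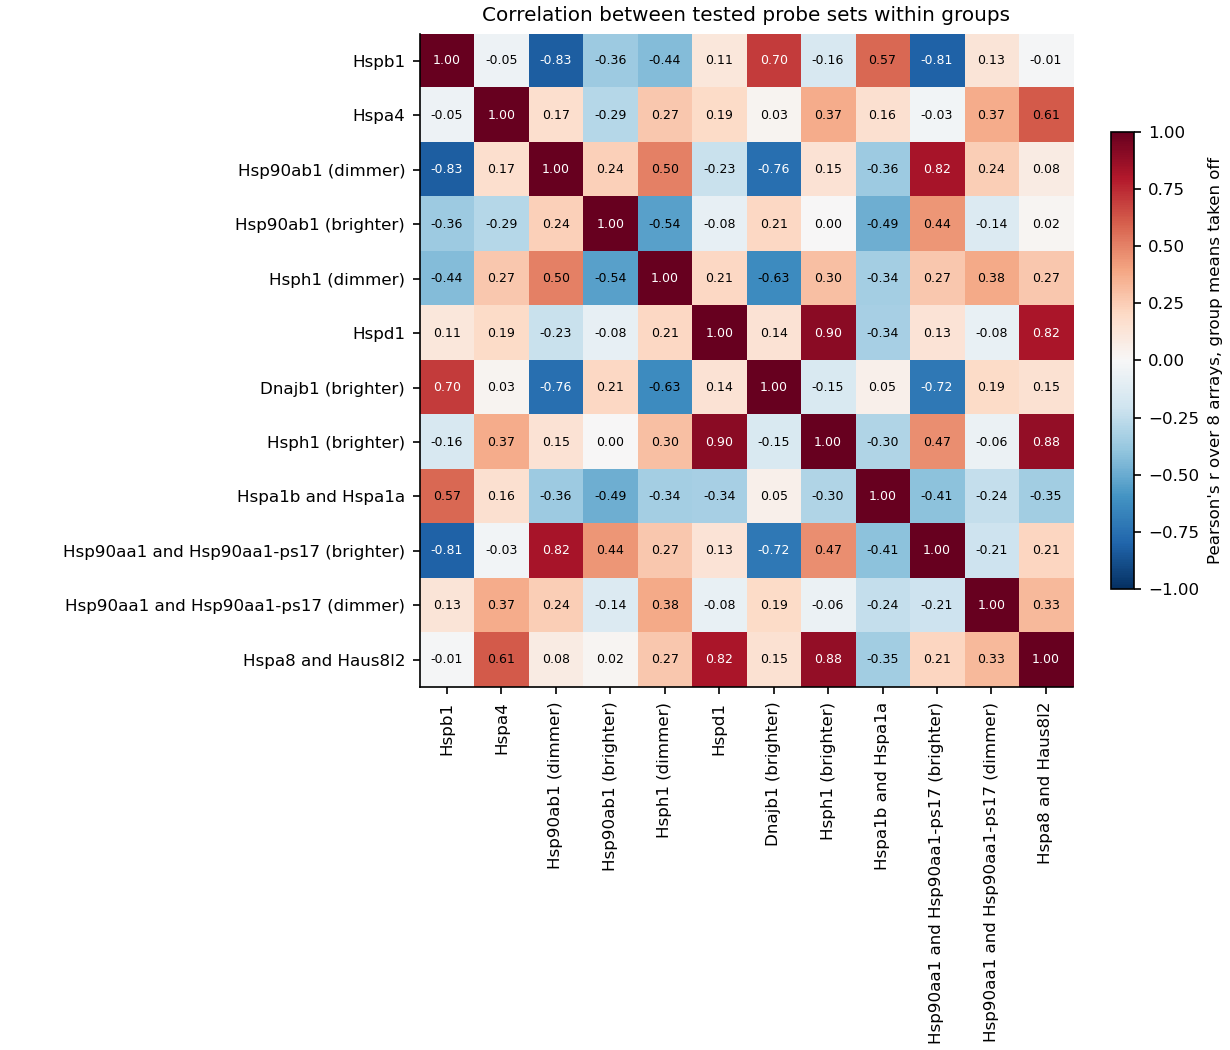
Pearson's r between the 8 tested member probe sets and the 4 with a further symbol, over 8 arrays after each group's mean was taken off; red is positive and blue negative. Hspd1, the brighter Hsph1 probe set and the probe set of Hspa8 and Haus8l2 form the reddest group, with r of 0.82 to 0.90. The dimmer Hsp90ab1 probe set and the brighter one of Hsp90aa1 and its pseudogene also had r of 0.82.

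Genes with the most similar profile were sought for the mean standardized profile of Hspb1, Hsph1 and Dnajb1, with the brighter probe set of each and Hspa1b left out because it has no probe set of its own. These 3 did not run together, since Hsph1 had r of -0.16 with Hspb1 and -0.15 with Dnajb1 (0.21 and -0.20 after quantile normalization), so that their mean stands for no shared profile. Among 13096 other named probe sets the highest within-group correlations over the 8 arrays were those of Ccn3 at 0.96, Lars1 at 0.96, Lmbrd1 at 0.96, Surf4 at 0.96 and Bltp3a at 0.95. In all, 40 probe sets exceeded 0.9, and with 8 arrays none is singled out by this measure.

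Around the members, 114 genes of the wider chaperone system were followed in 7 lists, each gene by its brightest probe set, and 89 of them were tested. Of these 89, 0 passed the adjusted test in either direction. At an unadjusted p under 0.05, 0 were higher and 4 lower, or 4.49%, beside 4.25% higher and 4.23% lower of all 10123 genes tested. Their median difference was -0.040, and 56 of 89, or 62.9%, were lower, beside 0.015 and 46.6% for all genes.

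The Hsp70 partners, J-domain proteins, nucleotide exchangers and further Hsp70 forms, had 19 of 30 tested genes lower and a median of -0.065, or -0.061 after quantile normalization. Those with the smallest p were Dnajb6, which holds aggregating proteins in solution, and Dnajc6, the auxilin that recruits Hsc70 to clathrin coats. Dnajb6 was at 18688 ± 1604 in saline and 14719 ± 1010 in olanzapine (SD, n = 4 each), with no overlap, and differed by -0.34 (SE 0.08, limma adjusted p 0.317). Dnajc6 differed by -0.37 (SE 0.09, limma adjusted p 0.317), with 14292 to 18765 in saline and 12379 to 14028 in olanzapine. Both lay above the 98th percentile of every array, and quantile normalization left -0.024 and -0.095 of these differences. With saline 19 left out both passed, at -0.40 and -0.46 with limma adjusted p of 0.0218 and 0.0186. Bag4, a nucleotide exchange partner, was at 170 to 300.0 in saline and 251 to 344 in olanzapine, a difference of 0.30 (SE 0.18).

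Hsp90 co-chaperones were lower in 7 of 15 tested genes, with a median of 0.068, or 0.048 once quantile normalized. Stip1, the adaptor that hands clients from Hsp70 to Hsp90, was at 285 to 409 in saline and 381 to 424 in olanzapine, a difference of 0.23 (SE 0.15). Unc45a, a myosin chaperone, differed by 0.23 (SE 0.19) and the adaptor gene Sgta by -0.15 (SE 0.13). In the cytosolic chaperonin TRiC, which folds actin and tubulin, and the prefoldins that feed it, 13 of 15 tested genes were lower, with a median of -0.11, or -0.092 once quantile normalized. Its subunit gene Cct6a was at 7863 to 12285 in saline and at 6947, 5154, 6488 and 11016 in olanzapine 9, 14, 18 and 19. The groups overlapped through olanzapine 19, and the difference was -0.44 (SE 0.18, limma unadjusted p 0.0284, adjusted p 0.534), or -0.29 after quantile normalization. Pfdn4 differed by -0.24 (SE 0.17) and Pdcl3 by 0.26 (SE 0.18).

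Mitochondrial chaperones and proteases, which serve the same compartment as Hspd1 and include Hspa9 from the Hsp70 list too, were lower in 9 of 10 tested genes, with a median of -0.092, or -0.15 after quantile normalization. Grpel1, the nucleotide exchanger of mitochondrial Hsp70, differed by -0.17 (SE 0.11), its J-domain partner Dnaja3 by -0.26 (SE 0.18) and Hscb, a J-domain protein of iron-sulfur cluster assembly, by -0.27 (SE 0.21). Small heat shock protein genes beside Hspb1 were lower in 2 of 5 tested, with a median of 0.057 that shrank to 0.0048 with quantile normalization. Cryab, the alpha-B-crystallin of glia, was at 356 to 467 in saline and 419 to 533 in olanzapine, a difference of 0.21 (SE 0.14). Hspb6 differed by 0.21 (SE 0.16) and Hspb3 by 0.057 (SE 0.18).

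Of heat shock factors and their regulators, 4 genes were tested and 3 were lower, with a median of -0.042, or -0.011 once quantile normalized. Hsf1, the master factor of the response, was at 387, 286, 411 and 322 in saline 14, 15, 17 and 19 and at 276, 446, 257 and 609 in olanzapine 9, 14, 18 and 19. Olanzapine spanned the saline range on both sides, with a difference of 0.092 (SE 0.22). Hsf2 differed by -0.064 (SE 0.09) and Hdac6 by -0.066 (SE 0.19). In the list of other protein stress genes 4 of 11 were lower, with a median of 0.052 that turned to -0.0028 with quantile normalization. Sqstm1, the autophagy receptor for ubiquitinated proteins, was at 1331 to 2121 in saline and 1040.4 to 1411 in olanzapine. It differed by -0.44 (SE 0.14, limma unadjusted p 0.00633, adjusted p 0.409), with 1 of its 2 tested probe sets lower. Gadd45g differed by -0.37 (SE 0.18) and Hspa5, the Hsp70 of the endoplasmic reticulum, by 0.19 (SE 0.10).

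**Figure D5:**
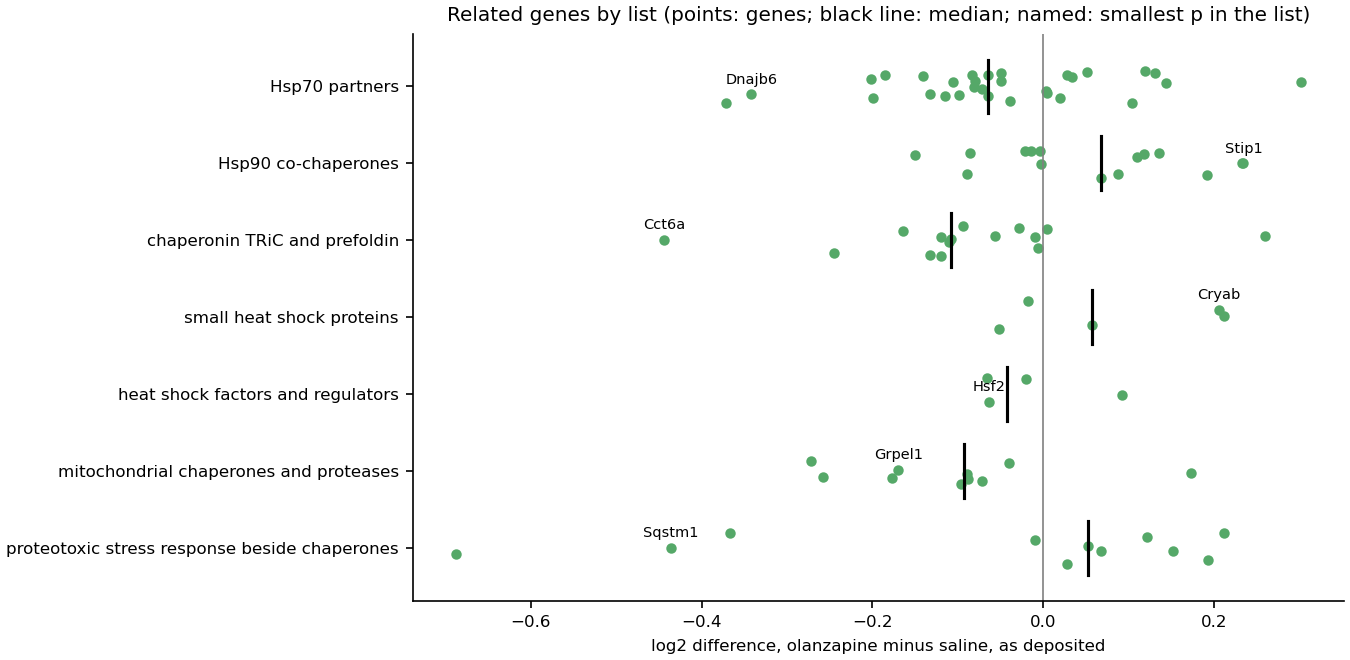
Log2 difference between olanzapine and saline (horizontal axis, as deposited) of each tested gene in 7 lists of the chaperone system; points are genes, black lines are medians and the gene with the smallest p in each list is named. Medians run from -0.11 for TRiC and prefoldin to 0.068 for Hsp90 co-chaperones.

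Across the series, median intensity was 159 to 191 per array, and the GAPDH control ratio of the 3′ to the 5′ probe set was 4.55 to 5.99 in saline and 3.62 to 5.80 in olanzapine. The 3′ probe set was thus several times brighter than the 5′ one on every array. The part of this imbalance in the chaperone values, and in the disagreement between probe sets of a gene, was not tested. Markers of excitatory and inhibitory neurons were present, with Slc17a7 at 2198 to 2640.4 and Gad1 at 6058 to 7815, but these do not tell cortex from other forebrain. The cortical marker Tbr1 was at 26.5 to 108.4, under the intensity of the filter limit on every array. Of 7 excitatory neuron markers on the array the other 6 were left by the filter, and the 7 summed to 13607 to 15641. Of 7 striatal markers on the array 5 were left by the filter, with a sum of 2442 to 3264 over the 7, while Drd2 was at 6.08 to 71.5. The frontal cortex label was thus not settled by these markers. The sum of 12 meningeal markers was 3076 to 4206 in saline and 4213 to 10958 in olanzapine, so that the groups did not overlap, as for the brighter Hsp90ab1 probe set. Saline 19 and olanzapine 19 were only a few units apart in this sum, and it was the only marker list examined here without overlap. All 10 meningeal genes left by the filter were higher in olanzapine, beside 5401 of all 10123 genes tested. Of the 12, 0 had an intensity of 0 on any array. Their part in the Hsp90ab1 result was not tested. Sums of markers of microglia, vessels, oligodendrocytes, blood and choroid plexus overlapped between the groups.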

How the data were processed

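The authors deposited linear probe set intensities for 8 arrays, 31099 probe sets each. The sources used here name neither their software nor a background correction. The mean without the lowest and highest 2% was 500.1 to 500.2 on each array, so the deposited values had been scaled to a common level, which leaves differences that vary with brightness in place. Gene symbols came from the platform annotation of 2016, updated for genes other than members by Entrez identifier through the RefSeq table of GRCr8.

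Values were converted to log2(intensity + 63.4), and 18625 of 31042 probe sets that were not controls were kept, those with a mean above the 40th percentile. Saline and olanzapine were compared with limma 3.58.1 in R 4.3.3 (lmFit, eBayes with trend, no covariates, two-sided, Benjamini-Hochberg at 0.05). The fit was tested on simulated data. Ratios of probe sets were compared by an exact permutation test over 70 assignments. Alternatives were other pseudocounts, filters, normalizations, variance models, a plain test, leaving out each array and a block on the animal number. The number of arrays limits the precision.

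Members and lists were chosen with earlier results of these data known. All member probe sets were named, and in each list the 3 genes with the smallest p, with Hsf1 whatever its p. Animals numbered 14 and 19 occur in both groups but are different rats, so the numbers do not pair the arrays. Protein sequences were not used here.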

Additional observations from a re-analysis of the deposited data

Results flagged for a closer look

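Within each group of 4 arrays, the gap of the highest or lowest log2 value to its neighbour, as a share of the group's range, was compared with Dixon's limit for 4 values. This was done for 28 groups of chaperone probe sets, and 3 were past the limit, where chance gives about 1 in 20. For the dimmer Hsp90ab1 probe set, olanzapine 19 stood at 625 against 513 to 519 in the other olanzapine arrays (share 0.936). For the probe set of Hspa1b and Hspa1a, saline 19 stood at 410.3, the remaining saline arrays at 39.1 to 55.9 (share 0.901). In the same probe set olanzapine 14 stood at 145 against 451 to 531 in the other olanzapine arrays (share 0.861).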

How the results depend on the processing

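No tested member probe set passed the adjusted test in any of the 19 alternatives, and the median difference of the members ran from -0.11 to -0.021 with 1 array left out. The brighter Hsp90ab1 probe set stayed between -0.40 and -0.24 and the brighter Hsph1 probe set between -0.41 and -0.11 throughout. Of the probe sets with several symbols, that of Hspa1b and Hspa1a passed only without saline 19, the array that went most against its difference. Its difference was 0.96 with a pseudocount at the median of all values, 1.88 with one of 16 and 0.62 with the replicate block.

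Over all probe sets, 0 passed, but 0 to 106 did with 1 array left out (106 without saline 19, 1 without olanzapine 9). The replicate block on the animal number, which rests on 2 shared numbers and leaves 1 residual degree of freedom, passed 6. Arrays of the same number correlated at 0.075 and 0.11 in their deviations from the group means, within the range of -0.13 to 0.13 over all saline and olanzapine arrays taken in pairs. Of the related genes 0 to 2 passed with 1 array left out, and 1 with the block, Atf3.

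Differences near 0 changed sign. Hspb1 was -0.00042 after cyclic loess, -0.18 with the replicate block and -0.035 to 0.15 with 1 array left out. The dimmer Hsp90ab1 probe set was 0.17 with the block and -0.16 to 0.12 with 1 array left out. The dimmer Hsph1 probe set was 0.31 with the block and -0.28 to 0.054 with 1 array left out. Hspd1 was 0.0068 after quantile normalization, 0.032 after cyclic loess and -0.053 to 0.033 with 1 array left out. The probe sets of Hsp90aa1 and its pseudogene were 0.033 and 0.0023 after these normalizations for the brighter, and -0.11 to 0.021 with 1 array left out for the dimmer. The cause of these changes was not tested.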
